A study of Rattus norvegicus with 6 samples.

Results

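Resident macrophages are the phagocytes that live inside a tissue, and the islets of Langerhans, the endocrine cell clusters of the pancreas, hold such a population close to their capillaries. A set of 10 genes known from these cells was followed in rat islets: the complement C1q chains C1qa, C1qb and C1qc, the receptor gene Csf1r, the surface marker Adgre1, the cytoskeletal marker Aif1, the lysosomal marker Cd68, the scavenger and mannose receptor genes Cd163 and Mrc1, and the integrin gene Itgam. They were chosen by name, and an array probe counted for a gene when its RefSeq transcript carried that symbol. All 10 of the 13903 named genes on the array were found, each by 1 probe printed at 1 spot.

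The study measured mRNAs and long non-coding RNAs in islets before and after they mature. One group was islets of adult male rats, whose age the labels do not give. The other was islets pooled from rats aged 10 days (P10), whose sex the labels do not give. Neither group carried a named treatment or allele, and no strain is given in the labels used here. Islets had been freed with collagenase, so cells attached to them or carried along were measured with them. Each stage had 3 arrays, which the labels describe as 3 rats and 3 pools. Adult arrays 2 and 3 differed from each other by no more than repeated spots on 1 array did, and so did P10 arrays 1 and 2. Each of these pairs was averaged and counted as 1 sample, which leaves n = 2 per stage, and whether the paired arrays carry separate RNA was not settled. P10 array 3 stood apart from the other P10 arrays only slightly. Over probes printed at 3 spots, the difference to them correlated between spots with r of 0.13 and 0.08, against 0.01 between P10 arrays 1 and 2. The variance of that difference relative to spot noise was 0.80 and 0.70, as low as the 0.72 between P10 arrays 1 and 2. Counting P10 array 3 as a separate sample is thus uncertain, and the p-values that do so may be too small.

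Levels are log2 processed Cy3 intensity minus the 75th percentile of the same array, so a level of 0 is a probe at that percentile. A change is the adult mean minus the P10 mean on this log2 scale, with its standard error (SE). Adjusted p-values are from limma with Benjamini-Hochberg adjustment over the 18362 probes tested, and a change counts as a rise or a fall at an adjusted p under 0.05. Of the 24684 probes, 17829 to 18731 per array exceeded background clearly by the scanner's flag, and 0 had a saturated spot. Adult 1 and the 3 P10 arrays were read in 1 scan, and adult 2 and 3 in another. Markers of the cells of origin fitted the tissue name in part. The 7 measured beta cell genes had a mean level of 4.61 to 4.95 in adults and 3.23 to 3.33 at P10. They did not move together: 4 were higher in adults, 2 did not pass and Ins1 was lower, by 0.93 (limma adjusted p = 0.025). The 9 measured genes of acinar cells, the enzyme-secreting cells of the exocrine pancreas, stood at 3.84 to 4.21 in adults and 6.21 to 6.26 at P10. The 10 genes of enterocytes, the absorptive cells of the gut, stood at -5.11 to -4.62 in adults and 3.88 to 3.94 at P10. Genes of other cell types thus differed between the stages as well, and their part in the results was not tested. In whole-islet RNA, fewer cells of a type and less RNA per cell cannot be told apart.

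Macrophages take their survival signal from the cytokines CSF1 and IL-34, which share the receptor encoded by Csf1r. C1q, which these cells release, starts the classical complement pathway with the proteases C1r and C1s and also coats dying cells for uptake. The transcription factor PU.1, encoded by Spi1, drives many genes of the lineage and binds purine-rich PU boxes, and many of its target promoters lack a TATA box. Promoter sequences of 8 of the 10 genes were matched in a RefSeq table of the rat assembly GRCr8, each running from 250 bases before to 50 bases after the start of the gene. C1qc and Aif1 were not matched. C1qa and C1qb, genes of the same cluster, are shown because they had nearly equal changes, and Adgre1 and Itgam because they had the largest changes. Each is written 5′ to 3′ on the strand of its gene, with a PU box core, GAGGAA or its complement TTCCTC, in capitals. C1qa lies on the minus strand at chr5:154419884-154420183, C1qb on the minus strand at chr5:154407778-154408077, Adgre1 on the plus strand at chr9:2329190-2329489 and Itgam on the plus strand at chr1:192089342-192089641.
C1qa: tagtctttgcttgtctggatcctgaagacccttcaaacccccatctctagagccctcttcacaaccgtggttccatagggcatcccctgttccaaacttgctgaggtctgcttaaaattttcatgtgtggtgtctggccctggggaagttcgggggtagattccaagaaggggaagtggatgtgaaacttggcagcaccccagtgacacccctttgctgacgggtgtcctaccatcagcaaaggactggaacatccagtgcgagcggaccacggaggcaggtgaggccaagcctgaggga
C1qb: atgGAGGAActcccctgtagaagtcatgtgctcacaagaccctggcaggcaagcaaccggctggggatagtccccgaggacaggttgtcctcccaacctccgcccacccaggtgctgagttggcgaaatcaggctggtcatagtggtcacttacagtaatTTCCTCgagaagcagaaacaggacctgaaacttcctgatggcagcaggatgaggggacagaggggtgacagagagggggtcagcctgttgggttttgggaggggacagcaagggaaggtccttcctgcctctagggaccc
Adgre1: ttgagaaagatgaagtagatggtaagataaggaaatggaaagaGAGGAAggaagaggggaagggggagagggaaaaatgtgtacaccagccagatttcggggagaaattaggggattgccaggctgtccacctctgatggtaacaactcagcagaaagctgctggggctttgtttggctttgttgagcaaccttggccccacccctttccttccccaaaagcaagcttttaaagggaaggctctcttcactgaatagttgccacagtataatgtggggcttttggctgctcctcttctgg
Itgam: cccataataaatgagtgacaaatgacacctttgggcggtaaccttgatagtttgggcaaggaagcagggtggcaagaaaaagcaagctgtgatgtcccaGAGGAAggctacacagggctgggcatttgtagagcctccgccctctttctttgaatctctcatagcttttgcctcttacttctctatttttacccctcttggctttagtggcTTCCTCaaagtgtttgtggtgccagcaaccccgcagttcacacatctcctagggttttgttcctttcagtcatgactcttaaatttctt
The PU box core was found on either strand in 6 of the 8 promoters, and in 27.6% of the 33469 promoters of this length in the table. It occurred at 2 places in C1qb, Csf1r, Cd68, Mrc1 and Itgam, at 1 place in Adgre1, and at 0 places in C1qa and Cd163. In C1qb the matches began 247 and 90 bases before the start, in Itgam 151 and 39 bases before it, and in Adgre1 207 bases before it. The TATA box letters TATAAA, searched on both strands, were in 0 of the 8 promoters and in 14.2% of all. The 2 motifs do not overlap in their letters. These are matches of letters in a fixed window, chosen with the expression results known, and they show neither a bound site nor its absence.

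Of the 10 genes, 9 passed the filter on dim probes. The 8 measured on every array were all higher in adult islets, by 1.82-fold to 4.80-fold. Itgam was called higher as well, but it passed the filter through the adult arrays alone. Its direction was thus fixed in advance, and it adds nothing to this count. Over all tested probes, 21.3% were called higher in adults and 31% lower. Over the 11410 named genes tested the shares were 23.7% and 28.7%. The median change of the 9 genes, with Itgam among them, was 1.40, against -0.13 over all named genes tested. For each of the 8, the lowest adult array lay above the highest P10 array, which held for 31.5% of all tested probes. Subtracting each array's median in place of its 75th percentile moved the balance over all probes from 3909 higher and 5698 lower to 5088 higher and 4640 lower. All 8 genes stayed higher under that scaling and under quantile normalization.

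The 3 C1q chains are encoded side by side, in the order C1qb, C1qc, C1qa in GRCr8, and their proteins assemble into a single molecule. C1qa stood at 3.12, 3.08 and 3.16 on the 3 adult arrays and at 1.36, 1.36 and 1.32 on the 3 P10 arrays. Its arrays within a stage nearly coincided, and it rose by 1.78 (SE 0.13, limma adjusted p = 0.0023), or 3.42-fold. C1qb stood at 2.99, 3.29 and 3.25 in adults and at 1.36, 1.30 and 1.33 at P10. Adult 1 was the lowest of its adult arrays, still far above the P10 arrays, and the rise was 1.80 (SE 0.16, limma adjusted p = 0.0034), or 3.49-fold. C1qc stood at 1.09, 0.70 and 0.70 in adults and at -0.49, -0.48 and -0.38 at P10. Here adult 1 was the highest adult array, and the rise was 1.33 (SE 0.19, limma adjusted p = 0.0096), or 2.51-fold.

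Csf1r, the receptor for CSF1 and IL-34, moved less. It stood at 2.24, 2.69 and 2.76 in adults and at 1.66, 1.64 and 1.53 at P10. The gap between the lowest adult and the highest P10 array was 0.58, the narrowest of the 9 genes, and adult 1 was the array closest to P10. The rise was 0.89 (SE 0.22, 95% interval 0.28 to 1.51, limma adjusted p = 0.034), or 1.86-fold. Adgre1 encodes F4/80, an adhesion G protein-coupled receptor used as a macrophage surface marker. It stood at 0.54, 0.47 and 0.28 in adults and at -1.83, -1.80 and -1.80 at P10. The P10 arrays nearly coincided, and the rise was 2.26 (SE 0.14, limma adjusted p = 0.0019), or 4.80-fold.

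Aif1 encodes IBA1, an actin-binding protein of motile phagocytes. It stood at 2.15, 1.96 and 2.08 in adults and at 0.65, 0.67 and 0.70 at P10, with no overlap. It rose by 1.40 (SE 0.14, limma adjusted p = 0.0040), or 2.65-fold. Cd68 encodes a glycoprotein of late endosomes and lysosomes that is abundant in phagocytes. It stood at 0.22, 0.37 and 0.25 in adults and at -0.63, -0.47 and -0.64 at P10. The groups did not overlap, and the rise of 0.86 (SE 0.13, limma adjusted p = 0.011), or 1.82-fold, was close in size to that of Csf1r.

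Mrc1 encodes the mannose receptor CD206, which takes up glycoproteins. It stood at 0.13, -0.07 and -0.10 in adults and at -1.39, -1.38 and -1.38 at P10. The P10 arrays again nearly coincided, and the rise was 1.40 (SE 0.15, limma adjusted p = 0.0048), or 2.64-fold. Cd163, the scavenger receptor for haemoglobin-haptoglobin complexes, was not tested. Its spot gave an intensity of 2.77, 2.38 and 2.71 in adults and of 2.53, 19.7 and 2.04 at P10. Only P10 array 2 was well above background, and P10 array 1, counted with it as 1 sample, was not, so no direction is given for Cd163.

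Itgam encodes CD11b, the alpha chain that pairs with the Itgb2 product to form complement receptor 3, and it is also made by monocytes, neutrophils and natural killer cells. Its intensity was 209, 283 and 237 on the adult arrays and 7.15, 4.40 and 6.59 on the P10 arrays. In levels this was -3.65, -2.85 and -3.04 against -7.15, -7.78 and -7.25. It exceeded background on the 3 adult arrays and on 0 of the P10 arrays, so only a bound can be given. Set against the lowest well-measured signal of each P10 array, Itgam was at least 14.2-fold higher in adults. It was tested only because the adult arrays passed the filter, so no p-value is given with this bound. The bound is approximate, because a given probe may need a stronger signal to be detected. With normexp background correction, which lifts dim spots, its change was 1.03 and did not pass (limma adjusted p = 0.092). The same correction left Cd68 at 0.65 (limma adjusted p = 0.0502).

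**Figure D1:**
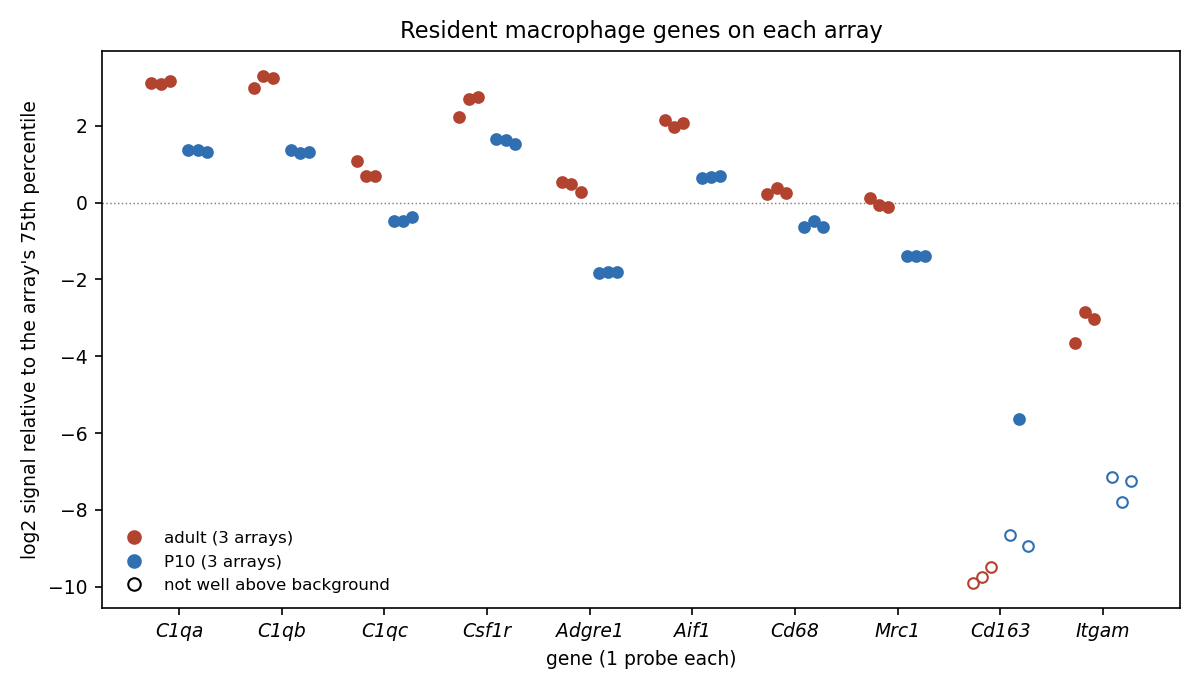
Level of each of the 10 genes on each of the 6 arrays (log2 processed intensity minus the 75th percentile of the array), 1 point per array; open points are not well above background, as for Cd163 on 5 arrays. For the 9 tested genes the adult points lie above the P10 points, with the narrowest gap for Csf1r (0.58) and the widest for Itgam (3.50), whose P10 points are all open.

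The calls leaned on the third P10 array. Without it the other P10 arrays count as 1 sample, and 4 of the 9 genes passed: C1qa, C1qb, Adgre1 and Itgam. The sizes hardly moved, but Csf1r (0.83, limma adjusted p = 0.21), Cd68 (0.82, limma adjusted p = 0.19), C1qc (1.37, limma adjusted p = 0.070), Mrc1 (1.40, limma adjusted p = 0.061) and Aif1 (1.42, limma adjusted p = 0.057) did not pass. Within the scan that held both stages, adult 1 could be set against the P10 arrays. That comparison has 1 adult sample, and its spread comes from P10 arrays that differ by about spot noise, far less than adult 1 differs from the other adult arrays, so its p-values are too small and are not given. The changes there, all above 0, were 1.77 for C1qa, 1.66 for C1qb, 1.52 for C1qc, 2.35 for Adgre1, 0.65 for Csf1r, 0.82 for Cd68, 1.47 for Aif1, 1.51 for Mrc1 and 3.71 for Itgam, and the scan as a block gave the same values.

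**Figure D2:**
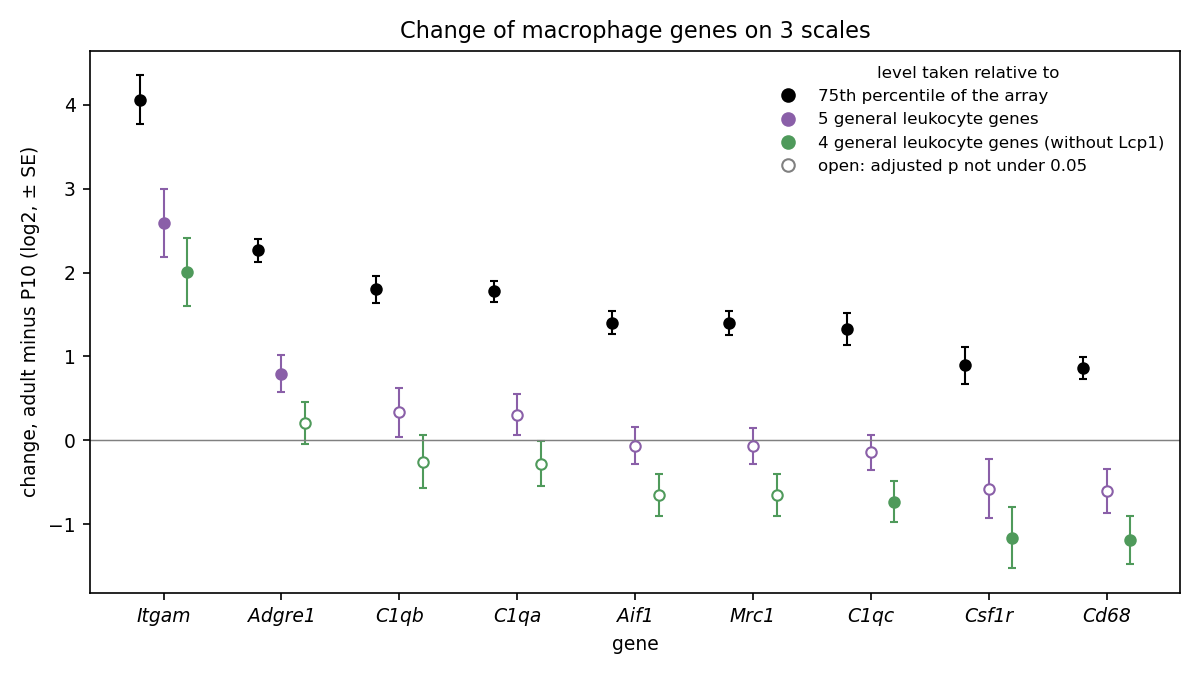
Change of each tested gene, adult minus P10 in log2, with bars of 1 SE from limma, relative to the 75th percentile of the array, to 5 general leukocyte genes and to 4 of them without Lcp1; open points did not pass the test. All 9 points lie above 0 on the array scale and pass, whereas relative to the 5 leukocyte genes only Adgre1 (0.79) and Itgam pass. The P10 spots of Itgam are below background, so its points give no reliable size.

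To set these genes beside leukocytes in general, each array was rescaled to the mean of Ptprc, Laptm5, Coro1a, Cd53 and Lcp1, genes active across white blood cells. That mean was 1.47 higher in adults. Cd53, a tetraspanin, rose by 2.61, Ptprc, the phosphatase CD45, by 2.24, Coro1a, an actin-binding protein, by 2.07 and Laptm5, a lysosomal membrane protein, by 1.31. Lcp1, the actin-bundling protein L-plastin, fell by 0.88 (limma adjusted p = 0.023), opposite to the other 4, and gave -0.58 (limma adjusted p = 0.14) under median scaling. It did not pass with normexp correction or without P10 array 3 either. Relative to the 5 genes, 1 of the 8 genes measured on every array was higher in adults and 0 lower. Over all tested probes 4.26% were higher and 75.4% lower. Itgam was called higher too, but it entered the test through the adult arrays alone. Its P10 spots are below background, so no size is given for it on this scale. With normexp correction Itgam was at -0.20. Adgre1 was higher by 0.79 (SE 0.22, limma adjusted p = 0.026), and did not pass without P10 array 1 (limma adjusted p = 0.075) or P10 array 3 (limma adjusted p = 0.35). Without adult array 1, C1qb was at 0.64. That setting leaves 1 adult sample, with its spread from P10 arrays near spot noise. Its p-values would be too small, so only sizes are given for it.

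The other 7 had intervals that include 0. C1qa was at 0.31 (95% interval -0.34 to 0.96) and C1qb at 0.33 (-0.46 to 1.12). C1qc was at -0.14 (-0.70 to 0.42), Aif1 at -0.07 (-0.66 to 0.53) and Mrc1 at -0.07 (-0.65 to 0.51). Csf1r was at -0.58 (-1.52 to 0.37) and Cd68 at -0.61 (-1.31 to 0.09). Within the shared scan, with its 1 adult array, Csf1r was at -0.99 and Cd68 at -0.82 on this scale.

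Leaving out Lcp1, a choice made after its fall was seen, gave a leukocyte mean 2.06 higher in adults. Itgam alone was then called higher, beside 2.22% of all tested probes. Its P10 spots are below background, so no size is given. Csf1r at -1.16 (limma adjusted p = 0.027), Cd68 at -1.19 (limma adjusted p = 0.010) and C1qc at -0.73 (limma adjusted p = 0.033) were lower, beside 86.5% of all tested probes. Adgre1 at 0.21, C1qa at -0.28, C1qb at -0.25, Aif1 at -0.65 and Mrc1 at -0.66 did not pass. Which of the genes moved with leukocytes in general therefore depended on which leukocyte genes set the scale.

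A scale set by Csf1r alone, also chosen after the data were seen, tests whether each gene changed by another amount than that receptor. Of 8 genes, 4 were called as rising more than Csf1r and 0 as rising less, beside 8.13% and 61.3% of all tested probes. Of these 4, 3 were measured at both stages, with differences of 0.88 for C1qa (SE 0.24, limma adjusted p = 0.025), 0.91 for C1qb (SE 0.20, limma adjusted p = 0.012) and 1.37 for Adgre1 (SE 0.28, limma adjusted p = 0.011). The fourth was Itgam, whose P10 level is below background, so no size is given for its difference. C1qc at 0.43 (95% interval -0.46 to 1.33), Aif1 at 0.51 (-0.20 to 1.23), Mrc1 at 0.51 (-0.26 to 1.27) and Cd68 at -0.03 (-0.61 to 0.55) did not pass. Cd68 was thus the gene with a change closest to that of Csf1r, and its interval leaves room for a difference in either direction.

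Beyond the 10 genes, a list of 131 other genes of macrophages by role had 109 members tested. Of these, 58 (53.2%) were higher in adults, 22 (20.2%) were lower and 29 did not pass, with a median change of 0.77. The shares over all named genes tested were 23.7% and 28.7%. Without P10 array 3, P10 counts as 1 sample, and fewer genes were called both in this list and over all tested probes. Counts in that setting, given by role and by marker list below, are thus not to be set against these shares. Many of these genes are made by other cells as well.

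Among growth factors and their receptors, 2 of 7 (28.6%) rose and 0 fell, beside 23.7% and 28.7% of all named genes tested. With so few genes, and a share near that over all genes, this count is not read as a result about the role. Csf1, a ligand of Csf1r, stood at -1.41, -0.98 and -0.90 in adults and at -1.63, -1.65 and -1.76 at P10. Its change of 0.52 (SE 0.21, 95% interval -0.08 to 1.13, limma adjusted p = 0.11) did not pass, although it did under median scaling and with every array as its own sample. Il34, the other ligand, stood at -3.65, -3.04 and -2.94 in adults and at -3.41, -3.28 and -3.25 at P10. Its groups overlapped, with a change of -0.02 (95% interval -0.78 to 0.74, limma adjusted p = 0.95) and -0.35 within the shared scan. The 2 that rose were Csf3r, the receptor of the granulocyte factor G-CSF, by 1.40 and Tgfbr1, a TGF-beta receptor, by 1.20. Neither passed without P10 array 3, which left 0 higher. Csf3r was at -0.05 with normexp correction.

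The complement genes that act with C1q were mostly higher. Of 13 tested, 9 rose, 3 fell and 1 did not pass. C1s stood at 2.86, 3.09 and 3.18 in adults and at 0.94, 0.89 and 0.84 at P10, which put the rise at 2.12 (SE 0.16, limma adjusted p = 0.0026). C1r stood at 3.14, 2.62 and 2.64 in adults and at 1.23, 1.21 and 1.33 at P10. Adult 1 was the highest array, and the rise was 1.61 (SE 0.23, limma adjusted p = 0.0091). The proteases of the C1 complex thus rose as its C1q chains did. The complement list gave 8 higher and 1 lower without P10 array 3.

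The largest complement rises were those of C4b, by 4.21, and C4a, by 4.18, the C4 genes cleaved by the C1 complex. They are near-identical copies, so their probes may share transcripts and the values are not independent. The 3 that fell were Cd46 by 2.47 and Cd55 by 0.95, which restrain complement on cell surfaces, and C3ar1, the C3a receptor of myeloid cells, by 1.52. The fall of C3ar1 did not pass under quantile normalization (-0.84, limma adjusted p = 0.089), with normexp correction (-0.98, limma adjusted p = 0.089) or without P10 array 3 (-1.35, limma adjusted p = 0.068). Cd55 falls outside the rule for named genes and was named after its value was seen.

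Fc receptors and their signalling partners gave 8 higher, 0 lower and 1 not called of 9, and without P10 array 3 the count of higher genes was 4. Fcgr3a, a receptor for immunoglobulin G, stood at -0.46, -0.25 and -0.53 in adults and at -2.91, -2.98 and -3.12 at P10, a rise of 2.61. Btk, the tyrosine kinase of myeloid and B cells, rose by 2.40, and with normexp correction by 0.84, which did not pass (limma adjusted p = 0.074). Chemokine, purine and pattern-recognition receptors gave 10 higher, 0 lower and 3 not called of 13, and without P10 array 3 the list gave 3 higher. Ly86, a secreted partner of a relative of the Toll-like receptors, rose by 2.46, with adult array 2 left out for an outlier spot.

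Of 20 released cytokines, chemokines and growth factors, 13 rose, 3 fell and 4 did not pass. Without P10 array 3 the list gave 9 higher and 2 lower. Ccl3, a chemokine of activated macrophages, stood at -0.28, -0.51 and -0.51 in adults and at -3.64, -3.84 and -3.83 at P10, a rise of 3.39. Ccl6 rose by 3.37. The 3 that fell were Igf1, Spp1 and Apoe. The brightest of 4 probes for the growth factor Igf1 was not well above background on any adult array and was at least 10.2-fold lower there. All 4 Igf1 probes were lower. The other 3 had adult means of -9.01, -9.32 and -8.11. The lowest signals well above background on the adult arrays ran from -8.24 to -7.72. No sizes are therefore given for these 3 probes. With normexp correction the brightest was at -1.42 and did not pass (limma adjusted p = 0.081). Spp1, the secreted protein osteopontin, stood at 0.53, -0.08 and -0.10 in adults and at 2.46, 2.55 and 2.63 at P10, and fell by 2.35. Apoe, the lipid carrier, fell by 0.70 and was named after its value was seen.

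**Figure D3:**
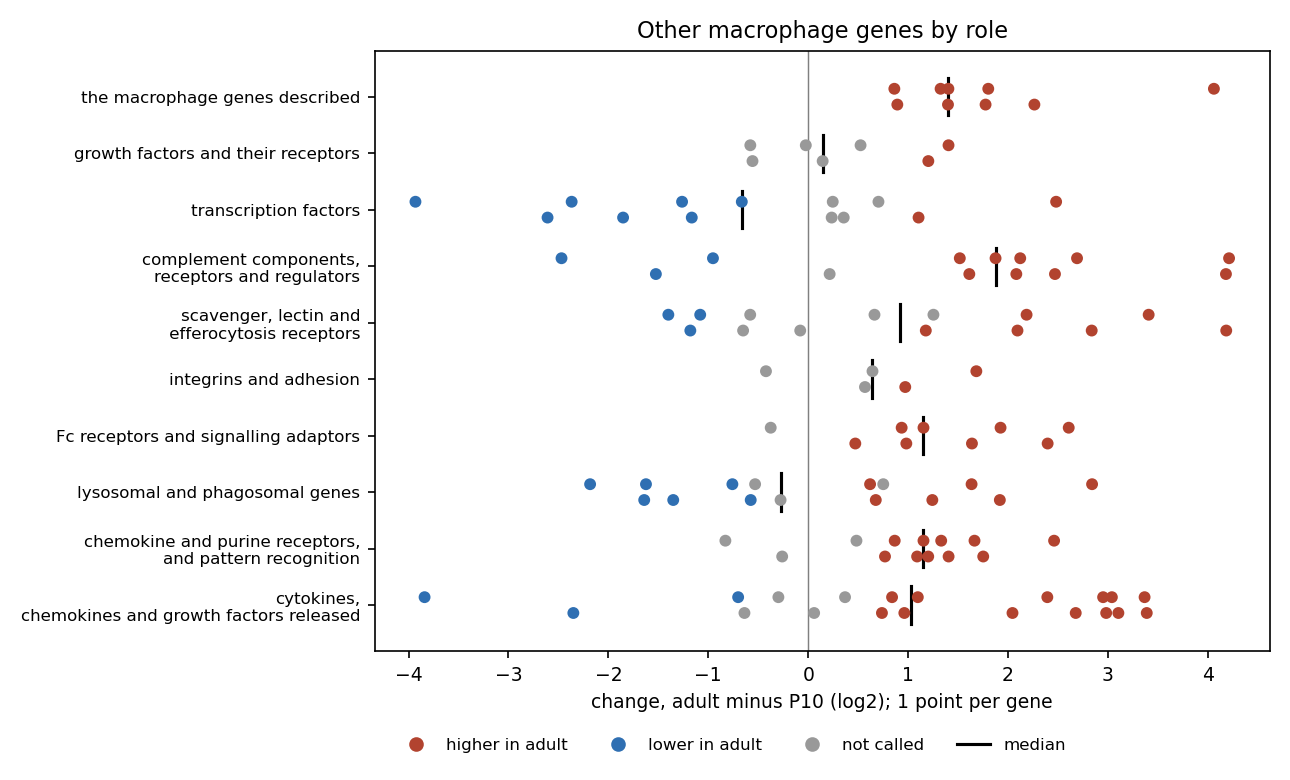
Change of each tested macrophage gene, adult minus P10 in log2, grouped by role below a row with the 9 tested genes described first; colours mark the calls and black bars the medians. Complement, Fc receptor and chemokine or pattern receptor genes lie mostly above 0 (medians 1.88, 1.15 and 1.15), whereas transcription factors lie mostly below it (median -0.66).

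Scavenger, lectin and efferocytosis receptors, which bind debris and dying cells, gave 6 higher, 3 lower and 5 not called of 14. Leaving out P10 array 3 gave 4 higher and 0 lower. Folr2, a folate receptor of tissue macrophages, stood at -0.07, -0.31 and -0.18 in adults and at -3.61, -3.64 and -3.50 at P10, a rise of 3.41. Marco, a scavenger receptor, rose by 4.18, with only 1 of its 3 P10 arrays well above background. Cd5l fell by 1.40 and Siglec1, a sialic acid-binding lectin, by 1.18. Neither passed without P10 array 3 or with normexp correction, and Siglec1 was at -0.38 under quantile normalization (limma adjusted p = 0.095) and -1.07 without adult array 3 (limma adjusted p = 0.055). The third to fall was Cd36, a fatty acid and lipoprotein receptor, by 1.08, named after its value was seen.

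Among integrins and adhesion genes 2 of 5 (40%) rose and 0 fell, beside 23.7% and 28.7% of all named genes tested. Fewer rose without P10 array 3. With so few genes, this count is not read as a result about the role. Itgb2, the beta chain that pairs with CD11b, stood at -0.34, -0.75 and -0.85 in adults and at -1.17, -1.17 and -1.25 at P10. Its groups did not overlap, but the change of 0.64 (SE 0.21, limma adjusted p = 0.066) did not pass. It did with every array as its own sample (0.55, limma adjusted p = 0.016). Without adult array 1, which leaves 1 adult sample, the change was 0.42. Cd44, a hyaluronan receptor, rose by 1.68 and Itgal, another partner of the Itgb2 chain, by 0.97, although Itgal did not pass without P10 array 3 (limma adjusted p = 0.12).

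Lysosomal and phagosomal genes gave 6 higher, 6 lower and 3 not called of 15, and without P10 array 3 they gave 3 higher and 2 lower. Lyz2, the macrophage lysozyme, stood at 4.95, 5.17 and 4.84 in adults and at 2.19 and 2.08 on P10 arrays 1 and 3, its spot on P10 array 2 being an outlier, and rose by 2.84. Ncf1, a cytosolic subunit of the phagocyte oxidase, rose by 1.92, which did not pass with normexp correction (1.04, limma adjusted p = 0.058). Lgmn, the lysosomal protease legumain, fell by 2.18 and Cyba, the membrane subunit of the same oxidase, by 1.64. Under median scaling the list gave 3 lower in place of 6.

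Transcription factors gave 2 higher, 7 lower and 4 not called of 13. Without P10 array 3 the counts were 1 higher and 4 lower. Batf3 stood at 1.75, 3.24 and 1.92 in adults, with array 2 the highest, and at -0.37, -0.15 and -0.37 at P10, a rise of 2.48. Irf5 rose 2.15-fold, and did not pass without P10 array 3 or with normexp correction. Tfec, a factor of the MITF family, stood at -4.87, -4.24 and -4.35 in adults and at -0.58, -0.58 and -0.72 at P10, and fell by 3.93. Cebpa, which acts in myeloid, liver and fat cells, fell by 2.61. Spi1, which encodes PU.1, changed by 0.70 and was not called, a gene named after its value was seen because its motif was searched. Median scaling gave 4 transcription factors higher in place of 2.

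Markers of other blood cells were also measured, beside shares of 23.7% higher and 28.7% lower over all named genes tested. Of 14 T and natural killer cell genes, 6 were higher, 1, Cd7, was lower and 7 did not pass. Their mean level was -2.91 to -2.59 in adults and -3.25 to -3.14 at P10. Cd3e and Cd3g, chains of the T cell receptor complex, rose by 1.47 and 1.46. Cd3d, another chain of that complex, changed by 0.45 and did not pass (limma adjusted p = 0.11). It falls outside the rule for named genes. Without P10 array 3, P10 counts as 1 sample, and 0 of the 14 were called higher. These calls thus depend on counting that array as a separate sample. Of 6 B and plasma cell genes 4 were higher and 1, Pax5, was lower. All 6 were well above background on each adult array, but only 2 on each P10 array, so no P10 mean level is read from this list. Cd79b, a chain of the B cell receptor complex, exceeded background on the 3 adult arrays and on 0 P10 arrays, and was at least 13.5-fold higher in adults.

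Of 9 monocyte and neutrophil genes 4 were higher and 2 lower (1 and 1 without P10 array 3), with a mean level of -3.55 to -3.04 against -3.58 to -3.39. Ly6c, a monocyte and endothelial surface protein, rose by 2.24, whereas Lcn2 and Camp, antimicrobial proteins of neutrophils that epithelia also make, fell by 3.11 and 1.00. The dendritic cell marker Clec9a rose by 2.26, 1 of 2 such genes tested. Over all named genes tested 23.7% were higher and 28.7% lower, and with so few genes the next 2 lists are not read as results about their cells. Of 9 mast cell genes 3 were higher and 1 lower, and of 6 erythroid genes 2 were higher and 2 lower. These counts without P10 array 3 were 1 and 0 for mast cells and 0 and 1 for erythroid cells.

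Genes of lymph nodes, which can come along with islets, were also measured, beside the same shares of 23.7% higher and 28.7% lower. Of 5 tested, 3 were higher and 2 lower (1 and 1 without P10 array 3), with a mean level of -0.34 to 0.20 in adults and -0.73 to -0.62 at P10. Cxcl13, a chemokine that draws B cells to follicles, stood at 1.94, 1.96 and 1.99 in adults and at -2.49, -2.47 and -2.59 at P10, a rise of 4.49. Ccl21, made by lymph node stroma and lymphatic vessels, fell by 2.94. Of 7 endothelial genes 1 was higher and 0 lower, and of 6 genes of fibroblasts, pericytes and stellate cells 2 were higher and 3 lower. Leaving out P10 array 3 gave 0 and 0, and 0 and 1. The part of lymphocytes, lymph nodes or other cells in the changes of the macrophage genes was not tested.

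The 8 genes well above background on every array had a mean centred profile of 0.74, 0.74 and 0.72 on the adult arrays and -0.74, -0.72 and -0.74 on the P10 arrays. Aif1 followed it most closely of the 8, with a root mean square difference of 0.07, then Mrc1 with 0.09, whereas Adgre1 was farthest with 0.40. Of 11176 other named genes, the 6 nearest to this profile were Sub1 (0.018), Fut11 (0.027), Sorbs2 (0.040), Gcnt3 (0.041), Ntrk2 (0.041) and Klc1 (0.042). Their changes ran from 1.39 to 1.49. With 6 arrays in 2 stages, the measure picks genes with a like difference between stages, and none of the 6 was on the macrophage list.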

How the data were processed

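Cy3-labelled RNA of 1 sample had been hybridised to each array. The submitters' processing notes name Agilent Feature Extraction 11.0.1.1 for the scanner files that the authors deposited. Their intensity values are, per the file headers, corrected for background and spatial trend, with no scaling from array to array. A further deposited table holds log2 values from the authors for 11062 mRNA probes, of which 99.99% lay within 0.05 of quantile-normalized processed intensity, and 8 of the 10 genes were in that table. No normalization method for it is given in the sources used here. Its column medians were 9.92 to 9.94.

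Outlier spots were left out, log2 intensities averaged per probe and the array's 75th percentile subtracted. A probe was tested where the 3 arrays of either stage were each well above background and every counted sample had a value. The tests used limma 3.58.1 in R 4.3.3, and the code was tested on simulated data. P-values measure the spread between these arrays, part of which may be technical, and the number of arrays limits the precision. Over probes printed at 3 spots, the variance between arrays relative to spot noise was 1.08 for adult 2 and 3 and 0.72 for P10 1 and 2, against 14.3 and 12.3 for the other adult pairs. The other P10 pairs, at 0.80 and 0.70, were as close, so the P10 spread is near spot noise. Symbols came from RefSeq accessions (GRCr8 table). The array annotation is of an older build, so no coordinates of probes are given. Bounds used the lowest signal well above background per array.

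The members, lists and tests were chosen with earlier results of these data known. Named genes were all members, the pairs Csf1, Il34, Itgb2, C1r and C1s, and per role or marker list the 2 largest rises and 2 largest falls, as far as the text uses them. Some genes that this rule picks are not reported here. The nearest genes were ranked by root mean square difference. Alternatives were other scalings, background correction (normexp on median signals, offset 50, since mean signals were not in the files used), dim-probe filters, outlier spots kept, the mean of a gene's probes, the authors' log2 values, every array as its own sample, the replicate block, the scan, and leaving out each array.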

Additional observations from a re-analysis of the deposited data

How the results depend on the processing

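All 9 tested genes kept their direction on the array scale in every alternative that tested them, and the calls of C1qa, C1qb and Adgre1 on the array scale held in each, with changes of 1.75 to 2.08, 1.66 to 2.10 and 2.03 to 2.56. Leaving out single arrays gave 4 to 9 of the 9 genes called higher, 1577 to 5872 of all probes higher and 2591 to 7543 lower, and 33 to 69 macrophage list genes higher and 9 to 31 lower. On the scale of the 5 leukocyte genes it gave 1 to 3 of the 9 higher and 0 lower. Normexp correction gave 2126 probes higher and 2722 lower, 38 list genes higher and 12 lower, and 1 of the 9 genes higher on the leukocyte scale. It turned Itgam there to -0.20 and the change of Csf3r to -0.050, and the cause was not tested. The authors' values gave 3089 probes lower, with fewer probes tested, and 1 gene higher and 1 lower on the leukocyte scale. No filter on dim probes gave 8599 probes lower, with more probes tested, and 1 gene lower on that scale, and requiring all 6 arrays well above background gave 1 higher, since Itgam was not tested. The scan as a block gave 8932 probes lower and the shared scan alone 8906, each with 2 genes lower on the leukocyte scale. These 2 settings take their spread largely from P10 arrays near spot noise, so their p-values are too small. Without Lcp1 that scale gave 1 higher and 3 lower. Quantile normalization moved the median change of all probes from -0.23 to -0.02 and gave 5219 higher and 5278 lower. Every array as its own sample put 1 gene lower on the leukocyte scale.

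Replicate numbers did not pair the samples: same-numbered arrays deviated together with correlations of -0.21, 0.08 and -0.24. With the replicate number as a block, 9 of the 9 genes were higher and 0 lower, 4713 probes were higher and 6786 lower, 60 list genes were higher and 27 lower, and 1 gene was lower on the leukocyte scale.

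With n = 2 per stage the intervals are wide. Itgam, Marco, Igf1 and Cd79b rest on signals near background in 1 stage, where differences between dim spots are least certain.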
